A study of Caenorhabditis elegans with 2 samples.

Results

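The sites described here are X chromosome peaks that lie away from gene starts, in a chromatin immunoprecipitation sequencing (ChIP-seq) experiment on the nuclear hormone receptor NHR-77 of the nematode Caenorhabditis elegans. A peak was included where it belonged to the peak set thresholded on the irreproducible discovery rate (IDR), lay on chromosome X, and had its summit more than 500 bp from every annotated start of a protein-coding transcript. This held for 417 of 3457 peaks (12.1%), or 417 of the 702 peaks of X (59.4%, Wilson 95% interval 55.7 to 63.0). Of the 2755 autosomal peaks, 1275 lay as far from a start (46.3%, 44.4 to 48.1). The sites were compared with these 1275 autosomal peaks and with the 285 X peaks within 500 bp of a start.

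All data came from 1 group of 2 biological replicates of whole L4 larvae of mixed sex. The worms were of strain OP353, which carries the mutation unc-119(tm4063) on chromosome III and the transgene insertion wgIs353 that provides eGFP-tagged NHR-77. The promoter of the transgene and the share of males remain not given in the sources used here. No untagged or untreated worms were analysed here, so recovery of DNA by NHR-77 cannot be told apart from recovery that does not depend on it. Whole larvae mix all cell types, and a site bound in few cells cannot be told apart from one bound weakly in many. The read depth is unknown, and every interval below covers the counting of regions only.

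Nuclear hormone receptors bind DNA through zinc fingers, often at short sites related to AGGTCA, and the family is large in nematodes. Chromosome X of C. elegans has its own regulation. In XX hermaphrodites a condensin-like dosage compensation complex binds both X chromosomes and lowers their transcription, so that it matches that of XO males. The complex is first loaded at recruitment sites on X, many of which lie between genes and hold clustered copies of a motif enriched on X (MEX), whose core is GCGCAGGG. The gene xol-1 is the switch that sets male fate and keeps the complex off X. These are facts of background, and no dosage compensation protein was assayed here.

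The strongest of the sites share short sequences around that core. Of the 20 sites with the highest pooled signal, 13 held a complete core within 250 bp of the summit. The core nearest to each summit is given with 8 bases on either side, read 5′ to 3′ on the strand that spells the core, in the order of signal and named by the gene with the nearest start. Capitals mark the core. Coordinates are those of WBcel235, the assembly also called ce11, and the sequences are RefSeq's.
W02H3.3 (chrX:11094218-11094241, minus strand): aaccattcGCGCAGGGacacctca
F19H6.5 (chrX:12363031-12363054, minus strand): agttatagGCGCAGGGtcttgagg
cest-16 (chrX:6296568-6296591, plus strand): taggtatcGCGCAGGGaagattta
gtr-1 (chrX:806666-806689, plus strand): cgattatcGCGCAGGGgtgtttgt
F22H10.2 (chrX:16682164-16682187, minus strand): aaaacatcGCGCAGGGaacatcaa
nspc-17 (chrX:14525892-14525915, minus strand): tgcctatcGCGCAGGGacagatgt
xol-1 (chrX:8036427-8036450, plus strand): tttccatcGCGCAGGGaacccttc
F20B6.9 (chrX:4209258-4209281, minus strand): ccgctatcGCGCAGGGacacctct
C41A3.2 (chrX:5429582-5429605, plus strand): taaatttaGCGCAGGGaggacgcc
Y41G9A.17 (chrX:2997115-2997138, minus strand): aatttatcGCGCAGGGaggaagta
ins-39 (chrX:1345048-1345071, plus strand): tgtcattcGCGCAGGGcagctgag
T24D8.6 (chrX:2364891-2364914, minus strand): ataattaaGCGCAGGGatatatag
col-185 (chrX:13514550-13514573, plus strand): cctttatcGCGCAGGGatattgaa
A word that differs from the core by the single substitution C4A, counted from 1 at the 5′ end of the core, was found by the search of all words of 8 bases described below. It is called the variant here and was thus chosen after its counts were seen. It is shown for the 6 of these 20 sites that held it within 50 bp of the summit, with capitals for the variant.
ZK899.6 (chrX:9465875-9465898, plus strand): aaatttagGCGAAGGGagagatac
nspc-17 (chrX:14525917-14525940, plus strand): tagtcatcGCGAAGGGacacattt
F20B6.9 (chrX:4209284-4209307, plus strand): attttatcGCGAAGGGagctcagg
C41A3.2 (chrX:5429549-5429572, minus strand): aagcattgGCGAAGGGacacgaga
fbxb-58 (chrX:1627098-1627121, plus strand): ctcccatcGCGAAGGGatactttc
F43E12.1 (chrX:7181755-7181778, plus strand): ccagaaaaGCGAAGGGtatagaac

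Among the 20 strongest sites there were 18 matches to the core within 250 bp of the summits. The base before the core was C in 14 of 18 matches, the 2 before it were TC in 13 and the 3 before it ATC in 11. The base after the core was A in 14. The form with TC before and A after, 11 letters long, was present in 11 of the 18. On all of X this form occurred 13 times, and 11 of these lay inside the sites, in 8 different ones that all ranked among the 20 strongest. On the autosomes it occurred 2 times, and 0 of these were inside any peak. The core itself occurred 81 times on X, of which 22 were inside these sites (25 inside any peak, 30.9%), and 233 times on the autosomes, of which 3 were inside a peak (1.29%). The variant occurred 140 times on X with 17 inside peaks (12.1%) and 491 times on the autosomes with 9 inside peaks (1.83%). The flanks and the 11-letter form were chosen after the matches were seen and carry no test.

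The arrangement of matches is seen in 101 bases centred on the summit, on the plus strand, with the core, its reverse complement CCCTGCGC and the variant in capitals. The sites at cest-16 and xol-1 have 2 cores each, in the same and in opposite orientation, and that at nspc-17 has a core and a variant. The site at ZK899.6, the second strongest, has a variant only, and that at F55G7.5, the next, has neither.
cest-16 (chrX:6296538-6296638, plus strand): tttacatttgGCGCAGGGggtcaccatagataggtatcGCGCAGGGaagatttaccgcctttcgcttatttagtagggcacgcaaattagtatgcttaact
nspc-17 (chrX:14525861-14525961, plus strand): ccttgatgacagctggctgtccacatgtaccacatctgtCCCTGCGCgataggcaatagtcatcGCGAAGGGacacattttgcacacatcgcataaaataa
xol-1 (chrX:8036389-8036489, plus strand): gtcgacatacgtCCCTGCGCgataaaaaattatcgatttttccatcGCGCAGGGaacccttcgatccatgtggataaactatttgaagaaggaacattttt
ZK899.6 (chrX:9465808-9465908, plus strand): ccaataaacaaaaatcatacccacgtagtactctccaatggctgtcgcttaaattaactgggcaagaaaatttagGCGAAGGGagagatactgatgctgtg
F55G7.5 (chrX:11937503-11937603, plus strand): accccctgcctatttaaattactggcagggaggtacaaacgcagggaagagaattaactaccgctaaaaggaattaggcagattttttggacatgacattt
Of the 20 strongest sites, 8 held at least 2 matches to the core or variant within 250 bp, and 3 of them held 3. Of the other 397 sites, 1 held 2. The sites at cest-16 and xol-1 lay outside the genes that name them. That at cest-16 was in an intron of mom-1, which encodes an acyltransferase for Wnt ligands, and that at xol-1 was intergenic, 4874 bp upstream of xol-1.

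The signal values of these sites were high in both replicates. A signal value is the authors' own enrichment of a region, and it serves here to order the regions of 1 list, since its scale differs between lists. The site at W02H3.3 (chrX:11093891-11094437) had a signal of 204 in replicate 1 and 335 in replicate 2, and it ranked 3 and 7 among the 30000 regions of each replicate. The site at ZK899.6 (chrX:9465654-9466039) had 197 and 336, with ranks 4 and 6. Both stood far above the medians over all 417 sites, 25.4 in replicate 1 and 45.5 in replicate 2. The site at F55G7.5 (chrX:11937276-11937770) had 172 and 339, and the site in the mom-1 intron (chrX:6296343-6296876) had 185 and 300. The site upstream of xol-1 (chrX:8036184-8036684) had 141 and 293, with ranks 18 and 15. These too ranked far above most regions. The site at F19H6.5 (chrX:12362878-12363408) had 173 and 337, that at gtr-1 (chrX:806486-806849) 168 and 300, and that at F22H10.2 (chrX:16681883-16682339) 137 and 337. The site 730 bp upstream of nspc-17, a gene for a nematode-specific peptide (chrX:14525395-14526194), had 145 and 304. The site 633 bp upstream of ins-39, an insulin-like peptide gene (chrX:1344898-1345233), had 110 and 255. The lowest of the 20 strongest was that upstream of the collagen gene col-185 (chrX:13514461-13514691), with 92.7 and 151 and ranks 48 and 64. Over the 20, the range of signals was 92.7 to 204 in replicate 1 and 151 to 339 in replicate 2, and all 20 were among the 64 strongest regions of both. In the pooled list their signals ran from 248 to 539.

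**Figure D1:**
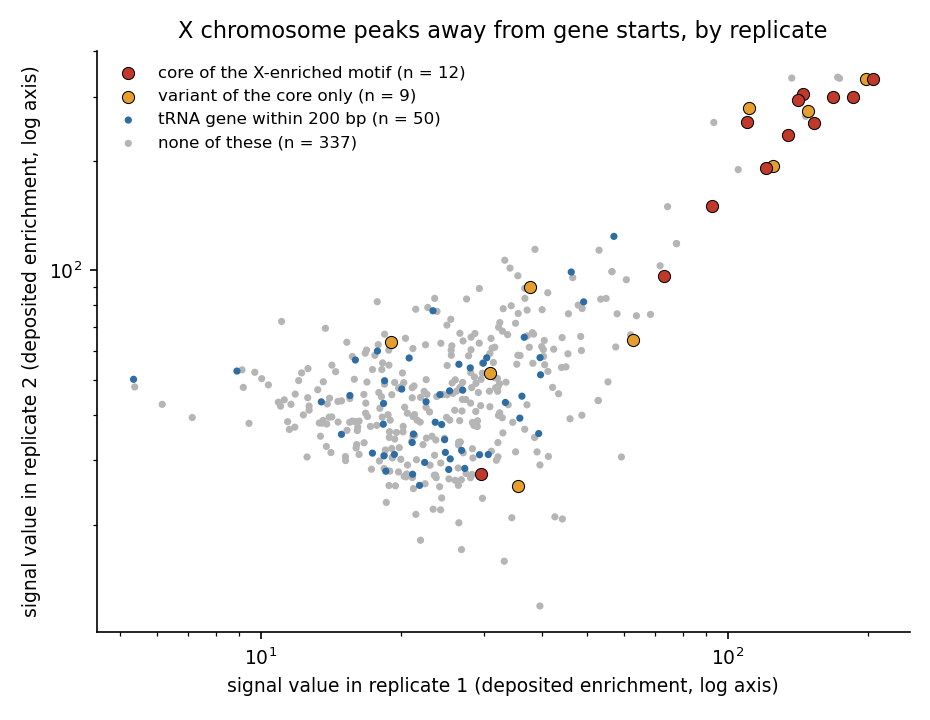
Signal value in replicate 1 (horizontal) and replicate 2 (vertical), both on log axes, for the 408 sites with a region in both replicates. Points are single sites, coloured by what lies within 50 bp of the summit (core, or variant without core) or within 200 bp (tRNA gene), and 14 of the 20 sites strongest in the pooled list carry a core or variant.

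That the strongest X peaks lie away from starts was known when the sites were chosen, so their share of the strongest peaks is a description and no independent evidence. Of the 417 sites, 22 were among the 100 strongest peaks of the genome (5.28%, Wilson interval 3.51 to 7.86), against 18 of 1275 autosomal peaks away from starts (1.41%, 0.895 to 2.22). The log2 odds ratio was 1.95 (95% interval 1.05 to 2.85). Against the X peaks near starts, with 5 of 285 (1.75%, 0.752 to 4.04), it was 1.54 (0.17 to 2.90). With the 500 strongest peaks in place of 100, the log2 odds ratios were 0.21 and -0.38. The median signals were close, at 66.0 for the sites, 66.0 for autosomal peaks away from starts and 69.5 for X peaks near starts. Of all 4002 regions of the pooled list that lay on X away from starts, 417 (10.4%) were in the thresholded set, against 11.5% of the 30000 regions of the whole list. The lowest signal in the thresholded set was 46.696, at an autosomal peak away from starts. The weakest site, at B0302.5, had 46.702, while the strongest X region away from starts outside the set had 46.66.

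The core was more frequent at these summits than at autosomal ones. It lay within 50 bp of 12 of 417 summits (2.88%, Wilson interval 1.65 to 4.96), against 1 of 1275 autosomal summits away from starts (0.0784%, 0.0138 to 0.443). The log2 odds ratio was 4.71 (2.26 to 7.16, two-sided exact Fisher test, p = 1.17e-05 after adjustment). The sites and motifs were chosen with earlier results of these data known, so this p is not that of an independent test. Over 26 tests, of 13 motifs against both other sets, 2 passed an adjusted p of 0.05 (7.69%). Both were of the core and its first 6 letters, against the autosomal peaks. The 6 letters GCGCAG were at 29 sites (6.95%) and 33 autosomal peaks (2.59%, log2 odds ratio 1.49, adjusted exact p = 0.00159). They were nearly as frequent in X peaks near starts, at 17 of 285 (5.96%, log2 odds ratio 0.22, -0.66 to 1.10, adjusted exact p = 0.931). Of the X peaks near starts, 1 of 285 had the whole core (0.351%). The log2 odds ratio of the core against them was 2.55, with a lower 95% bound of 0.09, and did not pass (adjusted exact p = 0.165). It passed with a window of 100 bp (2.96, adjusted exact p = 0.0182) and with starts of all gene classes but piRNA (2.64, adjusted exact p = 0.0209). In the other 8 of 10 alternatives it did not pass (log2 odds ratio down to 1.52, adjusted exact p up to 0.602). In windows of 101 bases laid end to end along X, the core was present in 0.0388%, and along the autosomes in 0.0263%. In the sets they were compared with, the peaks with the core within 50 bp of the summit were at R04E5.9 on X, 30 bp from its start with rank 243, and at Y54G2A.16 on chromosome IV with rank 2361. Autosomal peaks near starts were not searched in this way.

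Core and variant were concentrated in the strongest sites. The core was within 50 bp of the summit in 11 of the 25 strongest sites (44%, Wilson interval 26.7 to 62.9), in 0 of the 75 ranked 26 to 100 (upper limit 4.87%) and in 1 of the 317 after that (0.315%, 0.0557 to 1.76). It was in 4 of 3585 X regions away from starts that were below the threshold (0.112%, 0.0434 to 0.287). The variant was at 6 of the 25 strongest, at 3 of 75 and at 2 of 317. Of the 25 strongest autosomal peaks away from starts, 0 had the core (upper limit 13.3%), and of the 25 strongest X peaks near starts 1 did. With peaks ranked by a single replicate, the share of the 25 strongest was 52% in replicate 1 and 40% in replicate 2. Beyond rank 20, the sites with a core within 50 bp were those near dpy-23 (rank 25), which encodes an adaptin of endocytosis, and near R11.3 (rank 251). Both were intergenic. The site near dpy-23, 6268 bp from its start, had a pooled signal of 162, with 72.9 in replicate 1 and 96.5 in replicate 2. That near R11.3 had 60.4, with 29.6 and 27.5.

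**Figure D2:**
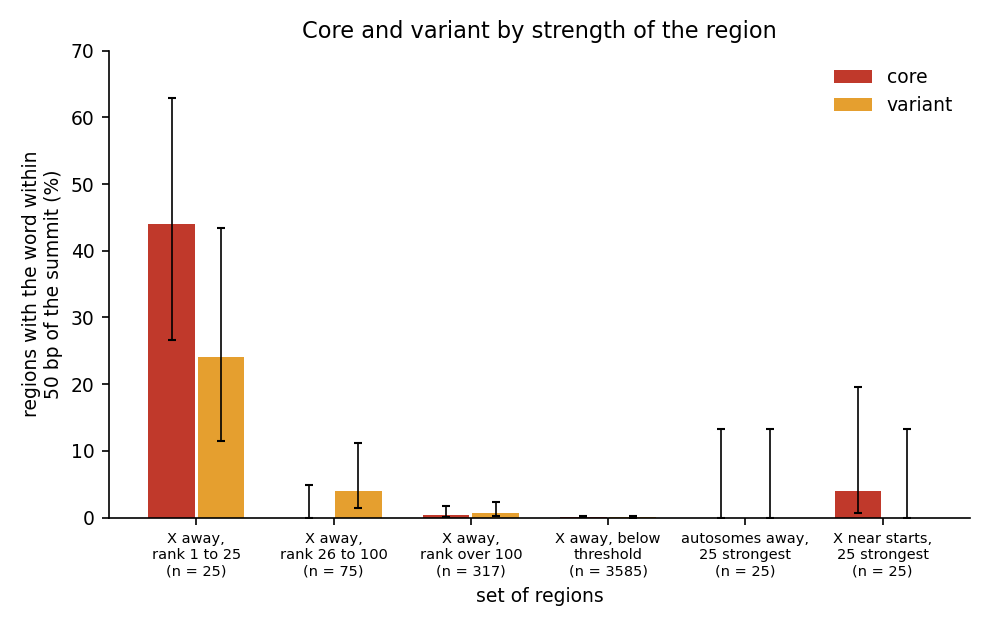
Share of regions with the core or the variant within 50 bp of the summit (percent, vertical) by set of regions (horizontal), with Wilson 95% intervals as bars. Among the X sites away from starts, the 25 strongest stand at 44% for the core and 24% for the variant, and the 317 weakest at 0.315% and 0.631%.

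Matches gathered close to the summits. Of the 18 core matches in the 20 strongest sites, 9 lay wholly within 25 bp of the summit, 12 within 50 bp and 16 within 100 bp. Within 50 bp, 14 of the 20 strongest sites had a core or variant, against 7 of the other 397. Within 250 bp these numbers were 17 of 20 and 11 of 397. The 3 of the 20 strongest without either were at F55G7.5, T27A8.7 and F56C3.1. Of these 3, 2 had a word 1 base away from the core within 50 bp, by G1A at F55G7.5 and by G1C at T27A8.7. Words at most 1 base away from the core were within 50 bp of 17 of the 20 strongest summits (85%, Wilson interval 64.0 to 94.8) and of 26 of the other 397 (6.55%, 4.51 to 9.42). They were at 43 of 1275 autosomal summits away from starts (3.37%), at 13 of 285 X summits near starts (4.56%, 2.68 to 7.65) and in 1.26% of the windows along X. The site at F56C3.1 (chrX:1389433-1389801), with signals of 105 and 189, had no such word within 50 bp.

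**Figure D3:**
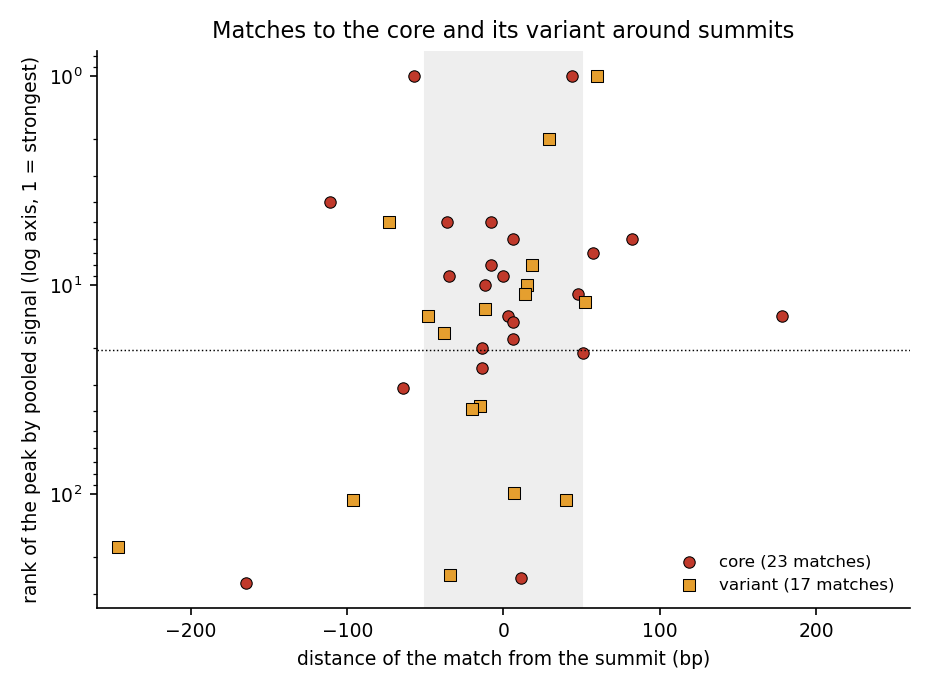
Distance of each match to the core (circles) or variant (squares) from the summit (bp, horizontal), against the rank of the site by pooled signal (vertical, log axis, strongest at the top). The grey band marks 50 bp on either side and the dotted line the 20 strongest sites, which hold 18 of the 23 core matches and 10 of the 17 variant matches.

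The search of all words was run on the same summits and the same sets of peaks as the test of the core. Where its words overlap the core, it counts the same summits again and is no independent evidence. Of 2080 words of 6 bases, each pooled with its reverse complement, 6 differed between the sites and the autosomal peaks away from starts (0.288%). Higher were GCAGGG (25 sites against 15 autosomal peaks, adjusted exact p = 0.000636), CGCAGG (30 against 31, adjusted exact p = 0.0135) and GCGCAG, which overlap in the core, and GGTTCG (32 against 33, adjusted exact p = 0.00858). Lower were AGACAC (17 against 141, adjusted exact p = 0.00689) and GTGATA (27 against 167, adjusted exact p = 0.0457). Among the 285 X peaks near starts, which this search did not test, GCAGGG was at 7, CGCAGG at 10, GCGCAG at 17 and GGTTCG at 10. Of 32896 words of 8 bases, 5 differed (0.0152%) and all 5 were higher in the sites. The variant GCGAAGGG was at 11 sites and 0 of 1275 autosomal peaks (adjusted exact p = 0.00303), and TCGCGCAG was at 13 and 1 (adjusted exact p = 0.00303). The remaining 3 were the core, CGCGCAGG and CGCAGGGA, at 11 or 12 sites and 1 autosomal peak each. Regions are not independent samples of a condition, and both replicates enter these tests through 1 pooled set.

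Of the other motifs of worm regulatory DNA, the GATA site, the E-box and the GA repeat were at more sites than the core, and none of those searched passed the test against the autosomal peaks within 50 bp. The GATA site TGATAA, bound by factors of the intestine and the epidermis among others, was within 50 bp of 119 sites (28.5%), against 429 of 1275 autosomal peaks (33.6%), at a log2 odds ratio of -0.34 (-0.69 to 0.01, adjusted exact p = 0.281). It was in 9.96% of the windows along X. Its longer form CTGATAA, which every such match also counts as TGATAA, was at 58 sites (13.9%), against 12.4% of autosomal peaks and 1.86% of windows along X. Against X peaks near starts, with 24 of 285 (8.42%), its log2 odds ratio was 0.80 (0.08 to 1.51) and did not pass (adjusted exact p = 0.201). That comparison passed with a window of 25 bp (1.49, adjusted exact p = 0.0214) and with starts of all gene classes but piRNA (1.08, adjusted exact p = 0.0166). In the other 8 of 10 alternatives it did not pass (log2 odds ratio down to 0.42, adjusted exact p up to 0.695). The E-box CACGTG, a site of basic helix-loop-helix factors, was at 28 sites (6.71%), 6.90% of autosomal peaks and 1.32% of windows. The repeat GAGAGAGA was at 19 sites (4.56%), 6.98% of autosomal peaks (log2 odds ratio -0.62, adjusted exact p = 0.311) and 0.553% of windows. With a window of 100 bp the repeat was lower in the sites (-0.86, adjusted exact p = 0.0182), while the other 9 of 10 alternatives did not pass. The hormone receptor site AGGTCA was at 11 sites (2.64%), against 45 autosomal peaks (3.53%, with -0.39 as log2 odds ratio, -1.33 to 0.56) and 2.64% of windows along X. The related AGTTCA (23 sites, 5.52%) and AAGTCA (21 sites, 5.04%) were in 7.45% and 5.39% of the windows.

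Few sites held both these motifs and the core or variant, which were rare among the sites in any case. Of the 154 sites (36.9%) with the GATA site, the E-box or the GA repeat, 1 also had a core or variant. Over all 417 sites, 21 (5.04%) had one, and the difference was not tested. The median signal was 61.4 for the 119 sites with TGATAA, 75.5 for the 28 with CACGTG, 70.4 for the 19 with GAGAGAGA and 397 for the 12 with the core. The strongest site with CTGATAA was upstream of fkh-9, a forkhead gene, with a signal of 140 and ranks 892 and 171 in the replicates. That with CACGTG lay 4993 bp upstream of bcat-1, a gene for a transaminase of branched-chain amino acids, with a signal of 135. That with GAGAGAGA was 532 bp upstream of F46H5.2, with a signal of 151. Their 101 bases around the summit, on the plus strand, carry the motif or its reverse complement in capitals.
fkh-9 (chrX:3829739-3829839, plus strand): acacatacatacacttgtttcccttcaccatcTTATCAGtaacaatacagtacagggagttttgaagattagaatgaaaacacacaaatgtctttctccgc
bcat-1 (chrX:12872437-12872537, plus strand): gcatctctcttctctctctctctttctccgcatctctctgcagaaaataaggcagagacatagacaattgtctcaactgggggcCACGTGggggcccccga
F46H5.2 (chrX:7265066-7265166, plus strand): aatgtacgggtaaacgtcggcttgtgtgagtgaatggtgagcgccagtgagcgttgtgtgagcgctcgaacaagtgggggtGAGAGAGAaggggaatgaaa

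Transfer RNA (tRNA) genes formed a second group of sites. A tRNA gene lay within 200 bp of 51 summits (12.2%, Wilson interval 9.43 to 15.7), against 34 of 1275 autosomal peaks away from starts (2.67%, 1.91 to 3.70). The log2 odds ratio was 2.34 (1.69 to 2.98, two-sided exact Fisher test, p = 8.68e-12 after adjustment). Of the 8 classes of noncoding genes and pseudogenes tested, 5 passed (62.5%). X carries 276 of the 612 annotated tRNA genes (45.1%), and the test takes no account of this. Counted by gene, 69 of 276 tRNA genes on X (25%) and 56 of 336 on the autosomes (16.7%) lay within 200 bp of any peak. Of the 51 summits, 31 were inside the tRNA gene itself. No site near a tRNA gene had a core or variant (0 of 51), against 21 of all 417 sites (5.04%). At that share few would be met in 51 sites, and the difference was not tested. The sites near tRNA genes had a median signal of 62.6, with a range of 47.4 to 178.

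Named tRNA genes among these sites served many amino acids. Genes for glutamate tRNA (7 of 23 on X near a site), glycine tRNA (6 of 20) and proline tRNA (6 of 20) were the most frequent by count. By share, cysteine tRNA was higher, with 3 of 7 genes. Over all tRNA genes on X, 59 of 276 (21.4%) were near a site, and differences between kinds were not tested. The strongest site was at C33G3.T2, a lysine tRNA gene, 3978 bp from the start of lgc-21, with a signal of 178 (57.0 in replicate 1 and 124 in replicate 2, ranks 182 and 112). The next were at the histidine tRNA gene C06G1.T1, in an intron of C06G1.1 (149), and at the asparagine tRNA gene F41D9.T3, in an intron of sulp-3 (129). The word GGTTCG is part of the internal B box, to which the transcription factor of tRNA genes binds, and of the 32 sites with this word 23 were near a tRNA gene. At C33G3.T2 the reverse complement CGAACC is in capitals.
lgc-21 (chrX:14063956-14064056, plus strand): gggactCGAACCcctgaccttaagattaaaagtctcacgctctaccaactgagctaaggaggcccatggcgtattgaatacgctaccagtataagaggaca
Copies of tRNA genes can be near-identical, and the placing of reads that match several copies remains not given in the sources used here. Of the 51 sites, 19 (37.3%) had 36 bases around the summit that occur more than once in the genome, up to 35 times, against 2 of the other 366 sites (0.546%). Among peaks whose 36 bases occur once, the log2 odds ratio of tRNA genes was 2.42 (adjusted exact p = 4.36e-08).

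The class ncRNA, the remaining noncoding genes of the annotation, was near 73 sites (17.5%) and 161 autosomal peaks (12.6%, log2 odds ratio 0.56, adjusted exact p = 0.0284), a call that 5 of 9 alternatives did not keep. Genes for small nucleolar RNAs were near 0 of 417 sites (Wilson upper limit 0.913%) and 39 autosomal peaks (3.06%, adjusted exact p = 0.000127, lost in 1 of 8 alternatives). Pseudogenes were near 0 sites and 29 autosomal peaks (2.27%, adjusted exact p = 0.000903, lost in 4 of 9 alternatives), and piRNA genes near 1 site and 21 autosomal peaks (adjusted exact p = 0.0388, lost in 7 of 9 alternatives). X holds 32.5% of the genes of the class ncRNA, against 13.7% of the protein-coding genes. It holds 9.54% of the small nucleolar RNA genes, 8.36% of the pseudogenes and 1.05% of the piRNA genes. The part of these shares in the differences, higher or lower, was not tested. Small nuclear RNA genes (0 sites against 13 peaks, adjusted exact p = 0.0626), microRNA genes (1 against 2) and long intergenic RNA genes (6 against 14) did not pass. The strongest site near a microRNA gene was 3662 bp upstream of F47G3.3 (signal 53.7), and that near a long intergenic RNA gene 2237 bp upstream of M163.1 (96.5). That near a gene of the class ncRNA was at F09E10.1 (189), and that near a piRNA gene at C49F8.15 (90.4).

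**Figure D4:**
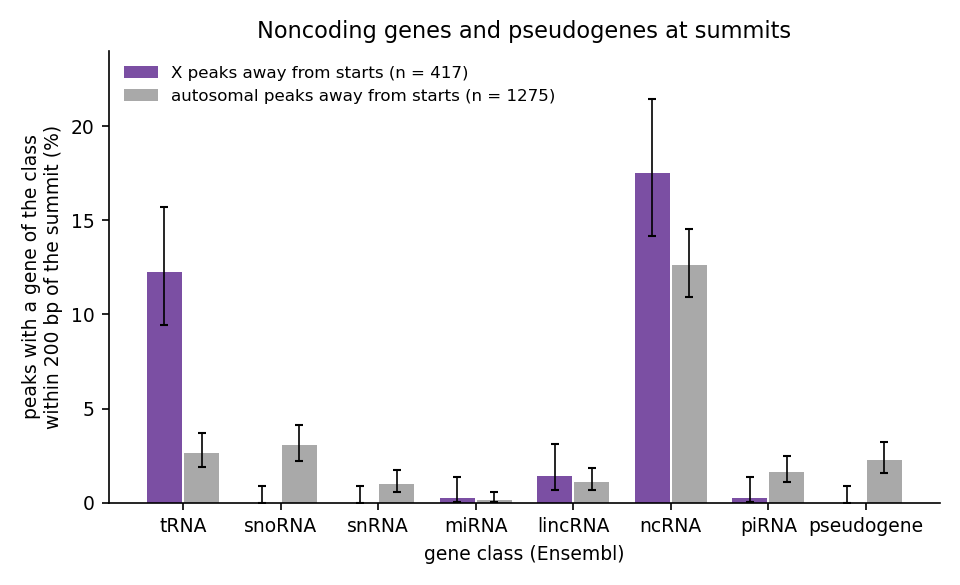
Share of peaks with a gene of each class within 200 bp of the summit (percent, vertical) by Ensembl gene class (horizontal), with Wilson 95% intervals as bars. The X sites away from starts stand above the autosomal peaks away from starts for tRNA genes, at 12.2% and 2.67%.

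Relative to protein-coding genes, most sites were intergenic. Summits lay between genes at 270 sites (64.7%), in introns at 120 (28.8%) and in exons at 27 (6.47%). The shares of autosomal peaks away from starts were 61.4%, 30.4% and 8.24%, and 0 of 3 tests passed (exact Fisher tests, p of 0.439, 0.580 and 0.439 after adjustment), nor did any at an unadjusted p under 0.05 (0 of 3). The log2 odds ratio of the intergenic class was 0.21 (-0.13 to 0.54). The distance to the nearest start had a median of 1796 bp and ran from 504 bp at asns-2, an asparagine synthetase gene, to 15196 bp at C41A3.2. The median was 1468 bp for autosomal peaks away from starts. Of the sites, 232 (55.6%) were upstream of the nearest start, against 60.6% of those autosomal peaks. In the annotation, 113 of 417 sites lay within 500 bp of a start of another gene class, against 274 of 1275 of those autosomal peaks. These differences were not tested. Just inside the limit of 500 bp, and thus not among the sites, were the peaks at F53A9.8 (494 bp, signal 141), dhs-30 (490 bp, 57.7) and bar-1 (487 bp, 54.9). Just beyond it were those at asns-2 (signal 56.4), gln-1 (508 bp, 64.5) and C03B1.13 (518 bp, 69.0).

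The strongest sites within genes were few. In exons they were in pks-1, a polyketide synthase gene (chrX:5429357-5429754, signal 416, 149 and 274 in the replicates), nipi-3 (175), Y62H9A.15 (110), hpo-34 (96.2) and asp-3 (90.2). The site in pks-1 had a core and a variant within 51 bp of the summit, and the other 4 had neither within 50 bp. In introns they were in mom-1 (484), Y41G9A.17 (376), C06G1.1 (149), pdk-1, a kinase gene of insulin signalling (140), and sulp-3 (129). The first pair had cores within 50 bp, the sites in C06G1.1 and sulp-3 were at tRNA genes, and that in pdk-1 was neither.

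Several sites could share a nearest gene. The 417 sites had 318 nearest genes, of which 256 had a single site, 41 had 2 and 21 had 3 or more. The largest number was 7, around mdl-1, which encodes a Mad-like basic helix-loop-helix protein. Their signals ran from 47.3 to 125 and their distances from 655 bp upstream to 8069 bp downstream of the nearest start of mdl-1. Around lin-14, a regulator of developmental timing, 6 sites had signals of 50.2 to 99.8, and 5 of them lay inside the gene. Around fkh-9, 6 sites had signals of 53.2 to 140, 3 of them inside the gene. Around mxl-3, which encodes a Max-like partner of such proteins, 5 intergenic sites had 49.9 to 97.9. Those with 4 sites were sma-9, a zinc finger gene of BMP-like signalling (up to 126), the receptor gene nhr-48 (up to 83.9), T02C5.1 (up to 76.2) and scd-1 (up to 61.6). The remaining genes had 3 each, among them the receptor genes nhr-14 (up to 148), nhr-1 (up to 99.8) and daf-12 (up to 61.1). The rest of those with 3 were F09E10.1, C30E1.4, taf-3, kin-20, W05H9.4, ivns-1, M163.1, C49F8.15, ets-4 and H18N23.2. A nearest gene states position only, and sites near 1 gene share its surroundings. Of the 21 listed genes of dosage compensation and sex determination, 6 are on X, and 1 of them, xol-1, had a site within 5000 bp of a start. That site, at 4874 bp, lay just inside the limit. The share of all X genes with a site so near was not counted, so 1 of 6 cannot be told apart from that share.

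Along X the sites were spread over the whole chromosome. Cut into 10 equal parts, each part of X held 20 to 63 sites, with the fewest in the sixth and the most in the eighth. The last part held 53 sites and 13 X peaks near starts, while the sixth held 20 and 27. Of the protein-coding genes of X, 199 (7.29%) were in the last part and 264 (9.67%) in the sixth. The part of gene density in these counts was not tested. The 25 strongest sites were in all 10 parts, with 5 in the first and 1 to 3 in each other. The median distance between neighbouring summits was 20994 bp, and the longest stretch without a site was 326649 bp, from 14841270 to 15167919. Among the 20 strongest the median distance was 843368 bp.

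**Figure D5:**
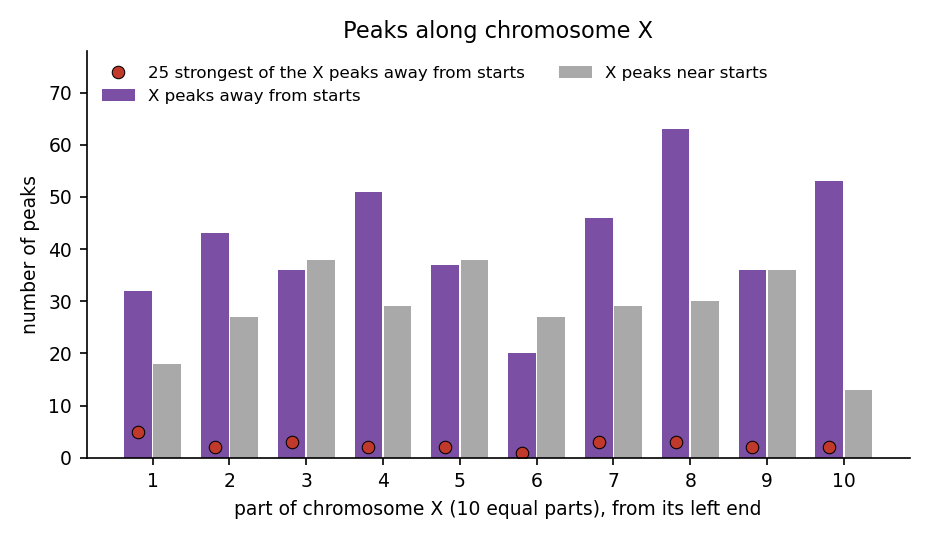
Number of peaks (vertical) in each of 10 equal parts of chromosome X from its left end (horizontal), for X sites away from starts, X peaks near starts (bars) and the 25 strongest of the X sites away from starts (points). The eighth part holds the most sites (63) and the sixth the fewest (20).

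Most sites were among the strongest regions of both replicates. Of the 417 sites, 250 (60.0%, Wilson interval 55.2 to 64.5) overlapped one of the 3457 strongest regions in both replicates, against 779 of 1275 autosomal peaks away from starts (61.1%, log2 odds ratio -0.07, -0.40 to 0.26, two-sided exact Fisher test, p = 0.686 after adjustment) and 187 of 285 X peaks near starts (65.6%, -0.35, -0.80 to 0.10, adjusted exact p = 0.266). Of the 20 strongest sites all 20 did, of those ranked 26 to 100 it was 74 of 75, and of the 317 weakest 151 (47.6%). The pooled signal that orders the sites was made from the same replicates, so this decline says nothing of how well the replicates agree at a given strength. Across the 408 sites with a region in both replicates, Spearman's rho of the signals was 0.41, a description over sites of the same libraries. The median ratio of replicate 2 to replicate 1 was 1.78, with a range of 0.302 to 9.38.

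Some sites rested mostly on 1 replicate. A second site near W02H3.3, at a tRNA gene (chrX:11095506-11095865), ranked 28504 in replicate 1 and 1430 in replicate 2. The site upstream of ftt-2, a 14-3-3 gene (chrX:11606036-11606132), ranked 556 and 12312. The sites upstream of dct-1 (901 and 8579) and mig-15 (1557 and 7852) also ranked higher in replicate 1, and those upstream of F13D11.3 (28327 and 1605) and C16H3.3 (23756 and 1997) in replicate 2. The sites of lowest pooled signal, near alg-1 (46.8), an Argonaute gene, pept-1 (46.7) and B0302.5 (46.7), had regions in both. No region of replicate 1 overlapped 7 sites, of which that near K09C4.1 was the strongest (signal 82.9), and no region of replicate 2 overlapped 2 sites, near mboa-1 (76.7) and F23A7.1 (48.0). Nearby sites also shared regions. Both F09E10.1 and C30E1.4 had a pair of summits in 1 region, and 2 of the sites near sma-9 overlapped the same regions, ranked 236 and 1897 in the replicates.

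The sites near hlh-29, a basic helix-loop-helix gene, hold a repeated sequence. Their summits, at 17544537 and 17545730 of X, each had a variant within 50 bp with the same 8 bases on either side, on opposite strands. The 36 bases around each summit occurred 2 times in the genome. The signals were 132 and 89.1.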

How the data were processed

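ChIP-seq regions of 2 biological replicates were analysed. Per the deposited file listings, the authors made lists of peaks and background for each replicate and for both pooled, against the same control, and derived the IDR-thresholded set from them, in build ce11. The aligner, caller, versions, IDR threshold and depth remain not given in the sources used here. Each signal of a region is the authors' deposited enrichment value. The deposited −log10 q-value was 3.87 for every peak of the thresholded set and was used for no comparison. Column values were taken as deposited, and the ce10 lists were not used here.

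Starts, exons and gene classes came from Ensembl release 115 (WBcel235), tRNA products and sequences from RefSeq. Shares of regions were compared by two-sided Fisher's exact tests with Benjamini-Hochberg adjustment within each family, and odds ratios carry 0.5 added to each cell. Motifs were searched on both strands, in whole words within 50 bp of the summit. Named sites were the 20 strongest, those with the core, the 5 strongest in exons and in introns, the 3 lowest, the 3 on either side of the 500 bp limit, the 3 with the largest difference of rank each way, the strongest of each gene class, and any within 5000 bp of listed dosage compensation genes. Genes with 3 or more sites were named as well. The sites, motifs and lists were chosen with earlier results of these data known, among them that the strongest X peaks lie away from starts. The code was tested on simulated data. Python 3.11.15, numpy 2.4.6, scipy 1.17.1 and pandas 2.3.3 were used.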

Additional observations from a re-analysis of the deposited data

How the results depend on the processing

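The core GCGCAGGG stayed more frequent at the sites than at autosomal peaks away from starts in 10 of 10 alternatives (log2 odds ratios of 4.59 to 6.61), and tRNA genes in the 8 of 8 that gave a value (2.16 to 2.86). Among the 500 strongest peaks, the log2 odds ratio of the sites was 0.21 against autosomal peaks and -0.38 against X peaks near starts, compared with 1.95 and 1.54 among the 100 strongest. The number of sites was 199 among the 1728 strongest peaks, by construction. The count of motif calls was 4 with starts of every gene class but piRNA and 4 with a window of 100 bp. The count of gene classes called was 3 with a start window of 1000 bp, 2 among the 1728 strongest peaks, 1 with the summit inside the gene, and 3 to 4 when either replicate was left out. It was 0 with starts of every gene class but piRNA, which removes peaks at such genes by construction. With summit sequences found once, an alternative chosen after the data were seen like that of 1 summit per region, it was 3. Words of 6 bases called numbered 3 with a start window of 1000 bp, 3 and 15 with motif windows of 25 and 100 bp, and 6 to 16 when either replicate was left out, and words of 8 bases 3 with the start window of 1000 bp. The causes were not tested. The position classes had 0 calls in all 6 alternatives. No paired analysis was possible because there is 1 group. Depth is unknown, so a site that is missing from a list cannot be told apart from one below detection.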
